A study of Mus musculus with 5 samples.

Results

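The 9 genes described here encode the cytoplasmic scaffolds and the MARVEL-domain and immunoglobulin-like membrane proteins of the epithelial tight junction: Ocln, Marveld2, Marveld3, Tjp1, Tjp3, Cgn, Cgnl1, F11r and Lsr. They were taken as the probe sets of the expression table whose single annotated symbol is 1 of these names, and each of the 9 genes had 1 such probe set, among 19937 genes with one or more. Of the 9, 8 passed the filter on low signal and were among the 14979 genes tested, and Marveld2 did not pass it.

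Expression was measured on 5 arrays of MLE-15 cells, a mouse lung epithelial line derived from tumours of mice with SV40 large T antigen under the promoter of human surfactant protein C, so every group carried that oncogene. In 3 cultures a lentivirus with a GFP reporter delivered an shRNA against Grhl2, a Grainyhead-like transcription factor of epithelia, and in 2 cultures the same kind of virus delivered a non-silencing shRNA. All 5 cultures shared the same treatments. Exposure to virus lasted 16 h, and the MOI (virus dose per cell) was 50. Polybrene was present at 5 µg/ml. Puromycin at 5 µg/ml then selected the cells over 6 days. A single Grhl2 hairpin is named, so an effect of Grhl2 loss and of that hairpin's sequence cannot be told apart. Each array came from its own transduction of 1 cell line, so the p-values measure the spread between transductions of that line.

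Tight junctions seal the space between epithelial cells near their apical edge. Claudins form the strands, while the MARVEL proteins occludin, tricellulin and MarvelD3 lie in or beside them, with tricellulin and the lipolysis-stimulated receptor Lsr concentrated where 3 cells meet. On the cytoplasmic side the ZO proteins tie the strands to actin, and cingulin and paracingulin bind ZO proteins and myosin.

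Values are log2 expression values, 1 unit being a doubling of signal. The array medians lay between 5.29 and 5.32, and arrays of 1 group correlated at r = 0.9984 to 0.9987, a measure over genes and not over replicates. The targeted gene, Grhl2, had values of 7.43, 7.43 and 7.60 with its shRNA and 7.77 and 7.68 in the control, which is 85.0% of the control signal (95% confidence interval 76.4 to 94.5%, limma adjusted p = 0.082), so the mean difference was small at the RNA level and missed the threshold. Grhl2 passed with the filter at the 50th percentile (limma adjusted p = 0.032) and with a trended and robust prior (0.023). It also passed without shRNA replicate 3, where the log2 fold change was −0.29 (0.047). It missed the threshold with no filter (limma adjusted p = 0.139), with no moderation (0.278) and without shRNA replicates 1 and 2 (0.170 and 0.201). Other ways of handling probe sets, other normalizations, array weights and the replicate block also missed it (0.069 to 0.090). Without control replicates 1 and 2 in turn, each leaving 1 control array, the log2 fold change was −0.19 and −0.28. All 6 epithelial markers examined (Epcam, Cdh1, Krt7, Krt8, Krt18 and Krt19) had signals above the median of the single-symbol probe sets, as had 7 of 9 alveolar type II markers, but Lamp3 and Slc34a2 of that list lay below the filter. Of other cell types, the fibroblast markers Lum and Postn, the endothelial markers Kdr and Emcn and the immune markers Ptprc, Itgam and Adgre1 lay below the filter, while 6 of 8 fibroblast, 5 of 7 endothelial and 3 of 6 measured immune markers passed it. At or above the median of the probe sets were 2 fibroblast, 0 endothelial and 1 immune marker. Summed over the list, the epithelial markers ran from 66.7 to 67.07 log2 units with the shRNA. In the control they ran from 67.09 to 67.2, with 0 of 6 called. The alveolar type II markers ran from 67.1 to 68.6 and 67.9 to 68.4, with Napsa called higher and Sftpd lower of 9, and the fibroblast markers from 40.5 to 41.2 and 40.22 to 40.23 with 1 of 8, Dcn, higher. The endothelial sums ran from 30.5 to 31.005 and 31.01 to 31.2 with 0 of 7 called, and the immune sums from 27.5 to 27.9 and 27.3 to 27.5 with 1 of 6 measured, Tyrobp, higher. The part of these shifts in the junction results was not tested.

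Among the 8 genes tested, cingulin (Cgn) fell and no other member passed the threshold, an adjusted p under 0.05 in limma, by the method of Benjamini and Hochberg over every gene tested. The Cgn signal with the Grhl2 shRNA was 86.8% of the control (95% confidence interval 81.4 to 92.5%, n = 3 against 2). Across the array 6.38% of genes passed, 3.52% lower and 2.86% higher, and a single call among 8 genes does not set them apart from that background. At an unadjusted p under 0.05, 2 members were lower (Cgn and Ocln) and 0 higher, where 23.1% of all genes passed in either direction and 11.8% were lower. Of the 8 log2 fold changes, 7 were below 0, against 49.1% of all genes, and their median was −0.08 against 0.002 over all genes. The 8 genes were read from the same 5 arrays, so their signs are not independent observations. The change of Marveld3 (−0.01, SE 0.041) was smaller than its standard error, and that of Tjp3 changed sign without control replicate 2. The groups did not overlap in 6 of the 8, with all shRNA values lower in 5 and higher in 1, where the shares over all genes were 41.5% in either direction, 20.5% lower and 21.0% higher.

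**Figure D1:**
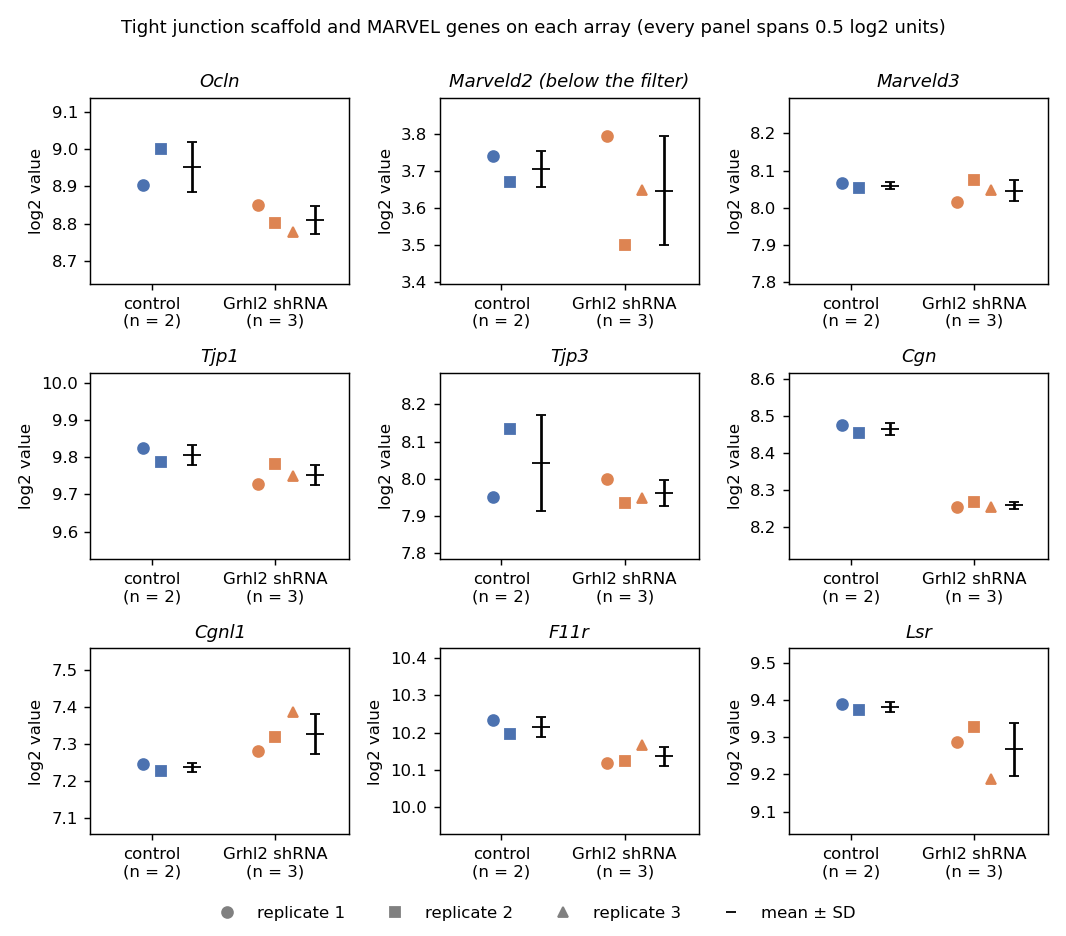
Log2 value (y axis) of each of the 9 genes on the 2 control arrays and the 3 Grhl2 shRNA arrays; symbols mark the replicate number, bars the mean ± SD, and every panel spans the same range of log2 units around its own centre. Cgn showed the widest gap between the groups, while Cgnl1 was the gene with every shRNA value above the controls.

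Cingulin and its paralog paracingulin (Cgnl1) are coiled-coil proteins of the cytoplasmic plaque that bind ZO-1. Cgn (probe set 10500021) had log2 values of 8.25, 8.27 and 8.25 with the Grhl2 shRNA and 8.47 and 8.45 in the control. The 3 shRNA arrays lay within a narrow band, clearly apart from both controls. The means were 8.26 ± 0.0087 (SD, n = 3) and 8.46 ± 0.016 (SD, n = 2), a log2 fold change of −0.20 (SE 0.039, limma adjusted p = 0.032). That size lay at the 90.9th percentile of absolute changes and its standard error at the 1.54th percentile of all genes tested. The call did not survive the loss of any array: the log2 fold change stayed between −0.22 and −0.19, but the limma adjusted p was 0.072, 0.097 and 0.076 without shRNA replicates 1, 2 and 3, and 0.155 and 0.139 without control replicates 1 and 2. It also ended with no filter on low signal (limma adjusted p = 0.069) and with no moderation of the variance (adjusted p = 0.093).

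Cgnl1 (10594855) had values of 7.28, 7.32 and 7.39 with the shRNA and 7.25 and 7.23 in the control. All 3 shRNA values were above both controls, the reverse of the order for Cgn. The means were 7.33 ± 0.054 and 7.24 ± 0.013, a log2 fold change of 0.09 (SE 0.047, 95% confidence interval −0.02 to 0.20) that missed the threshold (limma adjusted p = 0.30). Within each array the Cgn value exceeded the Cgnl1 value by 0.97, 0.95 and 0.87 log2 units with the shRNA and by 1.23 and 1.22 in the control, a quantity that speaks only of unequal change since signals of different probe sets are not comparable as levels. These differences averaged 0.93 ± 0.056 and 1.23 ± 0.0031, so the change of Cgn less that of Cgnl1 was −0.30. The groups did not overlap, and an exact permutation test, two-sided, with 10 ways to split the arrays gave p = 0.1, the smallest this design allows, and 0.5 after Benjamini-Hochberg adjustment over the 5 pairs of related genes compared.

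The promoters of this pair are shown because the paralogs had changes of opposite sign on these arrays and Grainyhead factors are known to bind sites of the AACCGGTT kind. The bases before the annotated RefSeq start (build GRCm38.p6, minus strand) are chr3:94786483-94786732 for Cgn and chr9:71771603-71771852 for Cgnl1, printed 5′ to 3′ with any match to the motifs below in capitals.
Cgn: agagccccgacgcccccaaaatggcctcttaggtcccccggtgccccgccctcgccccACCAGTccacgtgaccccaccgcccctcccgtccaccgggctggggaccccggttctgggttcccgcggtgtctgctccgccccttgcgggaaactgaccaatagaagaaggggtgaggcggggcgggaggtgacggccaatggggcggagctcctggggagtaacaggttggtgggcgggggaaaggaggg
Cgnl1: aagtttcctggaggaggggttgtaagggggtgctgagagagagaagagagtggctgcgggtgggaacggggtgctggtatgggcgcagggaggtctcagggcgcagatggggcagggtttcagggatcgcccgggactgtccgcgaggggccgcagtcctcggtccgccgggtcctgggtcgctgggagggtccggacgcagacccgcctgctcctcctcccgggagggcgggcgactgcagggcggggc
Both stretches were rich in G and C, at 70.4% for Cgn and 70.8% for Cgnl1. The motifs AACCGGTT, AACTGGTT, ACCGGT and ACTGGT were searched on both strands, each shorter one lying inside the longer, in windows of 250 bases before to 50 bases after the start. RefSeq windows were on hand for 8 of the 9 genes, 11 windows in all. The only match in them was ACTGGT in Cgn, read as ACCAGT on the strand shown, 192 to 187 bases before the start. ACTGGT occurred in 10.8% of all 32851 windows in the table, ACCGGT in 2.33%, AACTGGTT in 0.776% and AACCGGTT in 0.146%. A match is a description of the letters and was not tied to the array values.

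Of the MARVEL genes, Ocln and Marveld3 were tested and neither was called. Occludin (Ocln, 10411668), the founding 4-pass membrane protein of the tight junction, had values of 8.85, 8.80 and 8.78 with the Grhl2 shRNA and 8.90 and 8.999 in the control. The groups did not overlap, although shRNA replicate 1 and control replicate 1 lay close together. The means of 8.81 ± 0.038 and 8.95 ± 0.068 gave a log2 fold change of −0.14 (SE 0.049), or 90.6% of control (95% confidence interval 83.6 to 98.1%). Its limma adjusted p was 0.138, and its size moved between −0.19 without control replicate 1 and −0.09 without control replicate 2, neither of them called. MarvelD3 (Marveld3, 10581645), which is known to restrain JNK signalling at the junction, had values of 8.02, 8.07 and 8.05 against 8.07 and 8.05, which overlapped. Its log2 fold change was −0.01, with a 95% confidence interval of −0.11 to 0.08, which bounds its signal to 92.6 to 106.1% of control.

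Tricellulin (Marveld2, 10411680), which seals the corners where 3 cells meet, had dim values of 3.79, 3.50 and 3.65 with the shRNA and 3.74 and 3.67 in the control. Its mean of 3.67 lay under the filter at 4.22, the 25th percentile of the single-symbol probe sets, so it was not tested with the others. The values of the groups overlapped. In the fit without a filter its log2 fold change was −0.06 (95% confidence interval −0.26 to 0.15, limma adjusted p = 0.79), an interval that at this signal also covers changes of the size seen for Cgn. Ocln and Marveld2 are neighbours on chromosome 13 with no other protein-coding gene between them in RefSeq. The Ocln value minus the Marveld2 value changed by −0.08 and the Ocln value minus the Marveld3 value by −0.13 between the groups, with exact two-sided permutation p = 0.4 and 0.2 (0.67 and 0.5 after adjustment over the 5 pairs).

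The ZO proteins, PDZ-domain scaffolds that link claudins and occludin to actin, showed no call. ZO-1 (Tjp1, 10564343) had values of 9.73, 9.78 and 9.75 with the shRNA and 9.83 and 9.79 in the control. All 3 shRNA values were below both controls, though the nearest values of the groups lay closer together than those within either group. The means of 9.75 ± 0.027 and 9.81 ± 0.027 gave a log2 fold change of −0.05 (SE 0.042, limma adjusted p = 0.51), which bounds the signal to 90.0 to 103.3% of control. ZO-3 (Tjp3, 10371111), found mainly in epithelia, had values of 8.00, 7.93 and 7.95 against 7.95 and 8.13. Control replicate 2 stood above the other 4 arrays, which overlapped. The log2 fold change of −0.08 (SE 0.061, adjusted p = 0.48) rested on that array: with control replicate 2 left out it was 0.01, and with control replicate 1 left out −0.17. The Tjp1 value minus the Tjp3 value changed by 0.03 between the groups (exact two-sided permutation p = 0.8, 0.9 after adjustment). Leaving out control replicate 1 gave 0.14 for that difference, and leaving out control replicate 2 gave −0.08.

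The immunoglobulin-like membrane proteins had values slightly lower with the shRNA. JAM-A (F11r, 10351623), a homophilic adhesion protein that binds ZO-1 and the polarity scaffold Par3, had values of 10.12, 10.12 and 10.17 with the shRNA and 10.23 and 10.20 in the control. Its groups did not overlap, with shRNA replicate 3 the nearest to the controls. The log2 fold change was −0.08 (SE 0.042), or 94.7% of control (95% confidence interval 88.4 to 101.4%, limma adjusted p = 0.32). Lsr (10562181), which recruits tricellulin to tricellular contacts, had values of 9.29, 9.33 and 9.19 with the shRNA and 9.39 and 9.37 in the control. The shRNA arrays were all lower and more scattered than the controls, with replicate 3 the lowest. The log2 fold change was −0.11 (SE 0.052), or 92.4% of control (95% confidence interval 84.8 to 100.7%, limma adjusted p = 0.25). Without shRNA replicate 3 it was −0.07. The F11r value minus the Lsr value changed by 0.04 (exact two-sided permutation p = 0.9, 0.9 after adjustment).

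**Figure D2:**
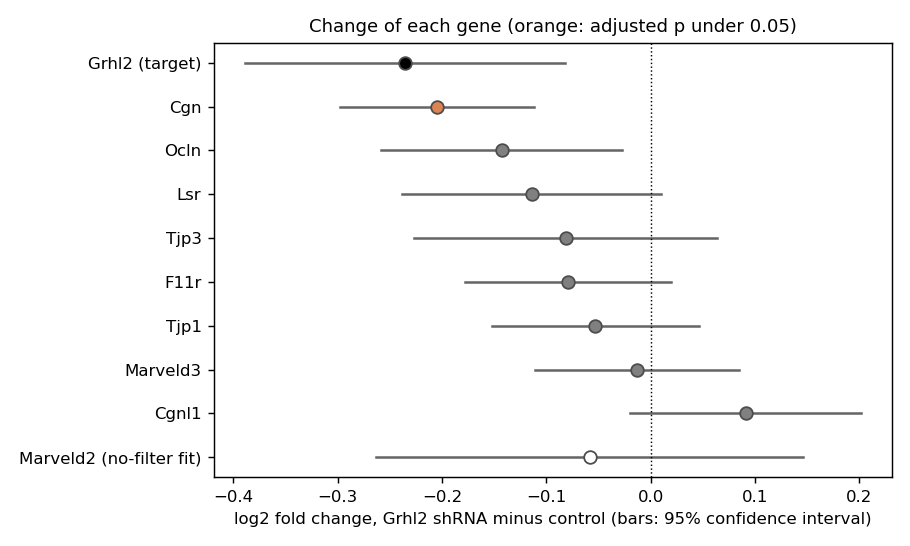
Log2 fold change (x axis, Grhl2 shRNA minus control) of Grhl2, the 8 genes tested and Marveld2, with 95% confidence intervals from limma; orange marks an adjusted p under 0.05 and the open circle the fit without a filter. The intervals of Cgn, Ocln and Grhl2 lie wholly below 0, and those of the other 7 genes include 0.

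**Figure D3:**
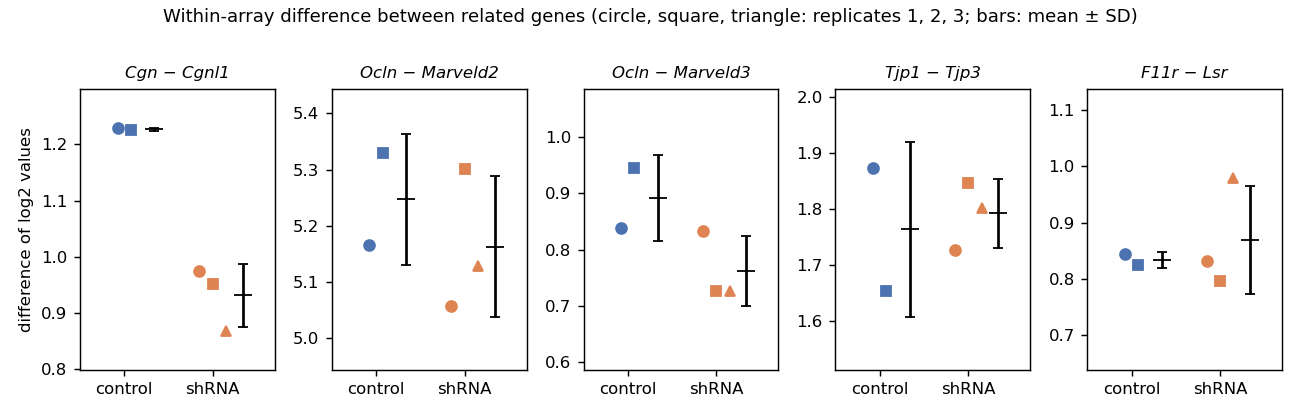
Difference of log2 values within each array (y axis) for 5 pairs of related genes; symbols mark replicates 1, 2 and 3 and bars the mean ± SD. Only for Cgn minus Cgnl1 and Ocln minus Marveld3 do the control and shRNA arrays not overlap. For Ocln minus Marveld3 the nearest values were 0.834 with the shRNA and 0.838 in the control. Of all single genes tested, 41.5% did not overlap on these arrays.

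With each array left out in turn, Cgn had the lowest and Cgnl1 the highest log2 fold change of the 8 genes in 5 of 5 fits. These fits share arrays, and without control replicate 1 Cgn (−0.194) and Ocln (−0.191) were nearly equal. Ocln, Lsr, F11r, Tjp1 and Cgn were below 0 in 5 of 5 and Cgnl1 in 0 of 5. For each of these genes the groups did not overlap, so leaving out a single array could not change the sign. Marveld3 and Tjp3 were below 0 in 4 of 5, the exceptions being shRNA replicate 1 left out for Marveld3 (0.002) and control replicate 2 left out for Tjp3. None of the 8 genes passed the limma threshold in any of these 5 fits, while between 1 and 3 had an unadjusted p under 0.05, Cgn always among them.

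**Figure D4:**
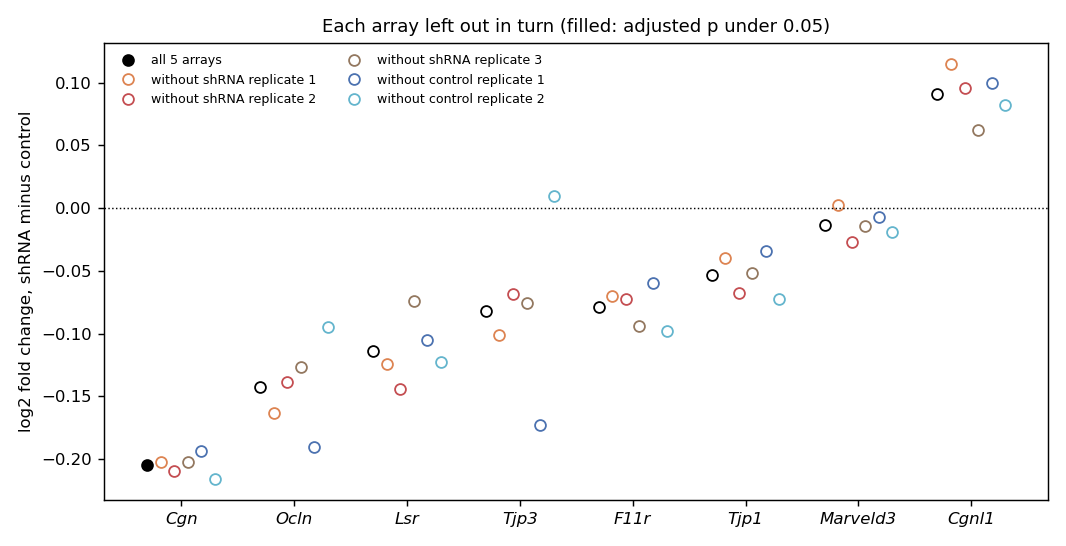
Log2 fold change (y axis) of the 8 genes tested with all 5 arrays and with each array left out in turn; filled circles have a limma adjusted p under 0.05. Cgn with all 5 arrays is the single filled point, and Tjp3 spreads from −0.17 to 0.01.

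Cgn was the called member, so the genes with the most similar pattern over the 5 arrays were looked up by the root mean square distance between log2 values centred on each gene's own mean. The nearest non-member genes were Rab6b, a Golgi Rab GTPase (distance 0.0065 log2 units), Fdps, the farnesyl diphosphate synthase of the mevalonate pathway (0.0087), and Fam83h (0.010). The median distance from Cgn over all genes was 0.116. Their log2 fold changes were −0.20, −0.22 and −0.21, close to that of Cgn because the measure asks for it.

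The rest of the junction was read from 4 further lists, of which 53 genes were tested. Of these, 3 fell, 3 rose and 47 did not pass in limma, against 3.52% of all genes lower and 2.86% higher. Of the 53, 34 were below 0, where the share over all genes was 49.1%, with a median log2 fold change of −0.03. Of 15 claudins tested, Cldn8 (−0.91) and Cldn4 (−0.42) fell, Cldn12 (0.25) rose and 12 did not pass, with a median of −0.004. Their largest changes exceeded any in the scaffolds and MARVEL proteins, whose values ran from −0.20 to 0.09.

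Of 6 JAM family and tricellular adhesion genes tested, Jam2 rose and 5 did not pass, all 5 of them below 0. Jam2 encodes JAM-B, a paralog of JAM-A known mainly from endothelium. Its values were 7.72, 7.79 and 7.83 with the shRNA and 7.32 and 7.32 in the control, a log2 fold change of 0.46 (SE 0.047, limma adjusted p = 0.0059), whereas F11r was at −0.08; the difference between these paralogs was not tested. Of the 7 endothelial markers 5 passed the filter, none was called, and their sums ran from 30.5 to 31.005 with the shRNA and from 31.01 to 31.2 in the control; their part in the Jam2 result was not tested. The Lsr relatives Ildr1 and Ildr2, also proteins of tricellular contacts, were at −0.05 and −0.06 (limma adjusted p = 0.59 and 0.47).

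Of 15 other scaffolds and polarity adaptors tested, Magi3 fell by 0.39 (SE 0.053, limma adjusted p = 0.013), Pard6g rose by 0.20 (SE 0.043, adjusted p = 0.044) and 13 did not pass. Magi3 is a PDZ scaffold of the membrane-associated guanylate kinase family, as are the ZO proteins, and Pard6g is an adaptor of the Par polarity complex. Magi3 had values of 8.77, 8.72 and 8.84 with the shRNA against 9.13 and 9.21, and its change was larger than that of any scaffold among the 9 genes. None of 17 other MARVEL-domain genes passed in limma, where 1 was lower and 0 higher at an unadjusted p under 0.05, and the largest change was that of Cmtm7, at 0.15 (adjusted p = 0.49).

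The 6 calls in these lists also depended on the arrays, some of them less than that of Cgn, although all 6 kept their sign. In all 6 the groups did not overlap, so leaving out a single array could not change the sign. Without control replicate 1 all 6 were lost (limma adjusted p 0.054 to 0.173), and without control replicate 2 all but Cldn4 (0.052 to 0.186). Without shRNA replicates 1, 2 and 3, the number lost was 3, 3 and 2 (adjusted p 0.068 to 0.110, 0.097 to 0.112 and 0.079 to 0.097). Cldn8, Jam2 and Magi3 stayed past the threshold whichever shRNA array was left out. Without control replicate 1 the log2 fold change of Cldn4 was −0.25. With no filter, Cldn4, Cldn12 and Pard6g lost their calls (limma adjusted p 0.063 to 0.089), and Cldn4 also with every probe set kept apart (0.051). With the replicate number as a block Cldn4, Cldn12, Magi3 and Pard6g lost theirs (0.052 to 0.113), and with no moderation of the variance all 6 did (0.107 to 0.253).

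**Figure D5:**
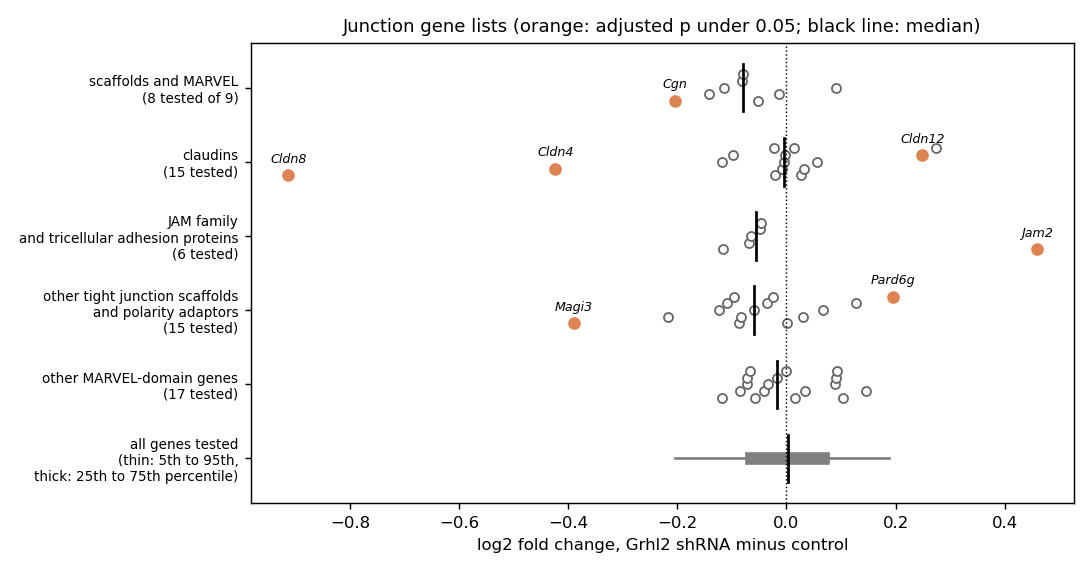
Log2 fold change (x axis) of every gene tested in the scaffold and MARVEL list and in 4 other junction lists, with the spread over all genes tested at the bottom; orange points have a limma adjusted p under 0.05 and black lines are medians. The scaffold and MARVEL genes sit in a narrow range around a median of −0.08, while single claudins, Jam2 and Magi3 lie farther out. The other MARVEL-domain genes also sit in a narrow range, from −0.12 to 0.15.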

How the data were processed

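The values analysed are log2 signals of 34760 probe sets on 5 arrays, as the authors deposited them, produced by the RMA method; Affymetrix Expression Console is the software named, per the submitters' processing notes. The method subtracts background, equalises the quantiles of the arrays and combines the probes of a set, so values are relative signals. Software versions, genome build and any filters were not given in the sources used here, and the log2 scale was taken from the method and the range of the values. Probe sets with exactly 1 annotated symbol (21640) were named, and 21553 were matched by Entrez ID to RefSeq (GRCm38.p6). Those with a mean under 4.22 log2 units, the 25th percentile, were left out, and the brightest of the remaining 16230 stood for each gene, giving 14979 genes.

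The groups were tested two-sided in limma (version 3.58.1, R version 4.3.3; lmFit, then eBayes), and p-values were adjusted by the method of Benjamini and Hochberg over every gene, with a threshold of 0.05. Confidence intervals are at 95% from that fit. With 3 residual degrees of freedom, the number of arrays limits the precision, and the median standard error was 0.051. The replicate numbers carry no stated link between groups: same-numbered arrays' deviations from their group means correlated at r = 0.057 and 0.019 across genes.

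The 9 genes, the lists and the alternatives were chosen with earlier results of these data known. Named were all 9 members, Grhl2, up to 4 called genes of each list by size (or the largest change where none was called) and the 3 genes nearest in pattern to each called member. Of 65 genes in the other lists, 53 were tested, and those not matched to a single-symbol probe set were not analysed here. Protein sequences were not used here, and 1 further list of partner genes is not reported here. Alternatives covered the filter, probe set choice, normalization, variance prior, array weights, replicate block, arrays left out and threshold.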

Additional observations from a re-analysis of the deposited data

How the results depend on the processing

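The count of genes called moved most with the processing: from 956 it went to 418 with no filter, 1708 with the filter at the 50th percentile, 2034 with a trended and robust prior, 9 with no moderation, 1851 at an adjusted p under 0.1, and between 67 and 493 with an array left out. The members called lower went from 1 to 0 with no filter, with no moderation and whichever array was left out (range 0 to 0), where Cgn, with a log2 fold change of −0.20 and then −0.22 to −0.19, lost its call. In those limma fits 1 to 3 members had an unadjusted p under 0.05, all lower. With the replicate number as a block, 172 genes and 0 members passed, 1 member (Cgn) had an unadjusted p under 0.05, and Cgn was at −0.20 (limma adjusted p = 0.114); the labels do not pair these arrays, and the block removes shRNA replicate 3 from the comparison. Cgn kept its call in 7 of 15 settings (limma adjusted p from 0.0065 to 0.037 in those 7). They were the 50th percentile filter, both other ways of handling probe sets, both other normalizations, the trended prior and array weights. With 1 probe set per member, the probe set alternatives left the Cgn values unchanged, and RMA had already equalised the quantiles of the arrays. The 7 settings are therefore not independent checks. No other member was called in any of the 15, and the lowest adjusted p among them was that of Ocln under the trended and robust prior (0.051). Tjp1, F11r, Lsr and Ocln kept their sign in 15 of 15, Marveld3 and Tjp3 in 14 of 15. These sign counts were largely fixed in advance. The filter, probe set and variance prior settings left the log2 fold change of each member unchanged. The groups of Tjp1, F11r, Lsr and Ocln did not overlap, so leaving out a single array could not change their sign. The causes of the shifts in calls and counts were not tested. A signal under the filter, in the case of Marveld2, and the use of 2 control arrays limit what changes of this size can show.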
